A study of Bos taurus with 12 samples.

Results

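TRH, MRAP2, PLA2G3 and NXPH3 are 4 genes whose signals in the mammary gland of lactating Holstein cows moved furthest, or close to furthest, when feed was restricted. They were chosen on the difference between the periods, so that difference is given here as a description, without a test. The genes were found by matching the RefSeq transcript printed with each array probe to a gene symbol, and they are 4 of the 12787 genes that a probe could be matched to. They had 6 probes in all, of which 4, 1 per gene, were bright enough to be compared.

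Mammary biopsies were taken from the same cows in 2 periods, and 1 array was run per biopsy. The CONT group (6 arrays, day 0) came from cows with free access to a lactation diet, and the REST group (6 arrays, day 6) from cows whose feed covered 50% of their calculated net energy requirement for lactation. The labels name 6 cows, although the series description counts 5. The study's methods start from 6 Holstein cows, exclude a Holstein cow for mastitis, and run the arrays on Holstein cows only. Read together, these would place the excluded cow among the 6. The labels do not say which cow it is, so every cow is shown and each was also left out in turn. REST always followed CONT, so diet, time and the earlier biopsy cannot be told apart. All were Holstein cows in midlactation, and the numbers 1 to 6 below name them.

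The 4 genes belong to no common pathway. TRH encodes the precursor of thyrotropin-releasing hormone, the peptide by which the hypothalamus makes the pituitary release thyrotropin and prolactin, the latter a hormone that sustains lactation. MRAP2 encodes an accessory protein that binds melanocortin receptors and some other receptors of appetite and energy balance and alters their signalling. PLA2G3 encodes a secreted phospholipase A2, an enzyme that frees fatty acids such as arachidonic acid from membrane phospholipids, and NXPH3 encodes neurexophilin 3, a secreted glycoprotein that binds neurexins, which are cell adhesion proteins of nerve terminals.

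Signals are given as normalized log2 signals: the log2 of the processed spot intensity, minus the 75th percentile of the same array. A value of 0 thus equals that percentile, and a difference of 1 is a doubling. The scanner software also called each spot as well above background or not, and a probe was compared across arrays when it was so on every array of CONT or of REST, which held for 19406 of 43653 probes and for 7932 genes. The arrays lay 4 to a slide. Slide 1 carried both arrays of cows 1 and 2, slide 2 those of cows 3 and 4, and slide 3 those of cows 5 and 6. Slide 3 was dimmer, with a 75th percentile of 73.2 to 117 intensity units against 252 to 390.0 on the others. Signals were read from whole biopsies, so fewer cells of a type and less RNA per cell cannot be told apart.

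TRH was lower in REST in all 6 cows. In CONT its signal (probe to NM_001101221) was 4.39, 3.14, 3.84, 4.53, 2.74 and 4.68 in cows 1 to 6, a mean of 3.89 ± 0.80 (SD, n = 6). In REST it was 2.06, 1.71, 1.76, 1.14, 1.70 and 2.26 in the same order, a mean of 1.77 ± 0.38 (SD, n = 6). The highest REST value, in cow 6, lay 0.48 below the lowest CONT value, in cow 5, so the periods did not overlap. REST lay entirely below CONT in 1.48% of the tested probes.

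The fall in TRH averaged -2.11 ± 0.82 (SD of the within-cow changes, n = 6), a level 4.33-fold lower in REST. It was deepest in cow 4 (-3.39), followed by cows 6 (-2.42), 1 (-2.33), 3 (-2.08), 2 (-1.43) and 5 (-1.04). The 3 cows with the highest CONT signals therefore had the 3 deepest falls, and the REST signals lay closer together than the CONT signals. Before normalization the spot read 570 to 5992 intensity units in CONT and 379 to 1442 in REST, and it was well above background on all 12 arrays. The other TRH probe, to the same transcript, read only 2.73 to 4.12 units and was well above background on none of the 12. The TRH signal given here thus rests on a single probe that the other did not bear out. Why they differed was not tested.

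MRAP2, the receptor accessory protein, was also lower in REST in all 6 cows, and in some of them its REST signal was lost in the background. In CONT its signal (NM_001099393, a single probe) was -0.58, -1.85, -1.22, -1.41, -0.37 and -0.10 in cows 1 to 6, a mean of -0.92 ± 0.68 (SD, n = 6). In REST it was -3.83, -4.61, -1.97, -4.68, -4.64 and -1.28, a mean of -3.50 ± 1.50 (SD, n = 6). All 6 CONT spots were well above background, but in REST only those of cows 1, 3 and 6 were. The REST values of cows 3 and 6 stood well above the other 4, and that of cow 6 exceeded the CONT value of cow 2 and of cow 4, so the periods overlapped.

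The mean change of MRAP2 was -2.58 ± 1.35 (SD, n = 6), or 5.97-fold lower, and the size differed widely between cows. In cows 1, 3 and 6, where both spots were measured, the change was -3.25, -0.75 and -1.18. In the others the REST level has only an upper limit, taken as the spot's own signal or, where higher, the dimmest signal that counted as well above background on that array, and MRAP2 was at least 6.76-fold lower in cow 2, at least 7.83-fold lower in cow 4 and at least 5.76-fold lower in cow 5. With such spots raised to that limit the mean change was -2.24. In intensity units the spot read 66.0 to 191 in CONT and 4.69 to 85.2 in REST. With another background correction, normexp, the mean change was only -1.14.

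PLA2G3, the secreted phospholipase, was lower in REST in all 6 cows by amounts that ranged from slight to very large. In CONT its signal (NM_001080910, a single probe) was 1.59, 1.12, 1.04, 0.53, -1.18 and 1.56 in cows 1 to 6, a mean of 0.77 ± 1.03 (SD, n = 6). In REST it was -2.35, -3.10, -0.21, -2.71, -1.49 and -0.61, a mean of -1.74 ± 1.17 (SD, n = 6). Cow 5 stood apart with a low signal before restriction, below the REST values of cows 3 and 6, and it alone made the periods overlap.

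PLA2G3 changed by -3.94, -4.22, -1.25, -3.24, -0.31 and -2.16 in cows 1 to 6, a mean of -2.52 ± 1.55 (SD, n = 6), or 5.73-fold lower. Cows 1, 2 and 4 thus fell by more than 3 log2 units, while the level in cow 5 was only 1.24-fold lower. In cow 5 the intensity itself was 37.7 in CONT and 41.6 in REST, so its fall appeared only relative to the brighter REST array (75th percentile 117 against 85.7). The spot was well above background on all 12 arrays, at 37.7 to 858 intensity units in CONT and 41.6 to 288 in REST.

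NXPH3, the neurexin ligand, was higher in REST in all 6 cows, from 2.20-fold in cow 2 to 4.66-fold in cow 4. In CONT its signal (NM_001192824) was -1.69, -0.02, -1.07, -1.37, -0.16 and -0.84 in cows 1 to 6, a mean of -0.86 ± 0.66 (SD, n = 6). In REST it was 0.05, 1.12, 0.85, 0.85, 1.91 and 0.75, a mean of 0.92 ± 0.60 (SD, n = 6). The lowest REST value, in cow 1, lay 0.07 above the highest CONT value, in cow 2, so the periods just missed overlapping. REST lay entirely above CONT in 0.783% of the tested probes.

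The rise in NXPH3 was 1.74, 1.14, 1.92, 2.22, 2.07 and 1.58 in cows 1 to 6, a mean of 1.78 ± 0.39 (SD, n = 6), or 3.43-fold higher. Cow 1 was the lowest and cows 2 and 5 the highest of the 6 in both periods, and the cows differed more in level than in change. The spot was well above background on all 12 arrays, at 40.9 to 299 intensity units in CONT and 146 to 842 in REST. The other NXPH3 probe, to the same transcript, read 2.61 to 10.4 units and was well above background on none of them. The NXPH3 signal thus also rests on a single probe that the other did not bear out, and why was not tested. With normexp the mean change was 1.21.

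**Figure D1:**
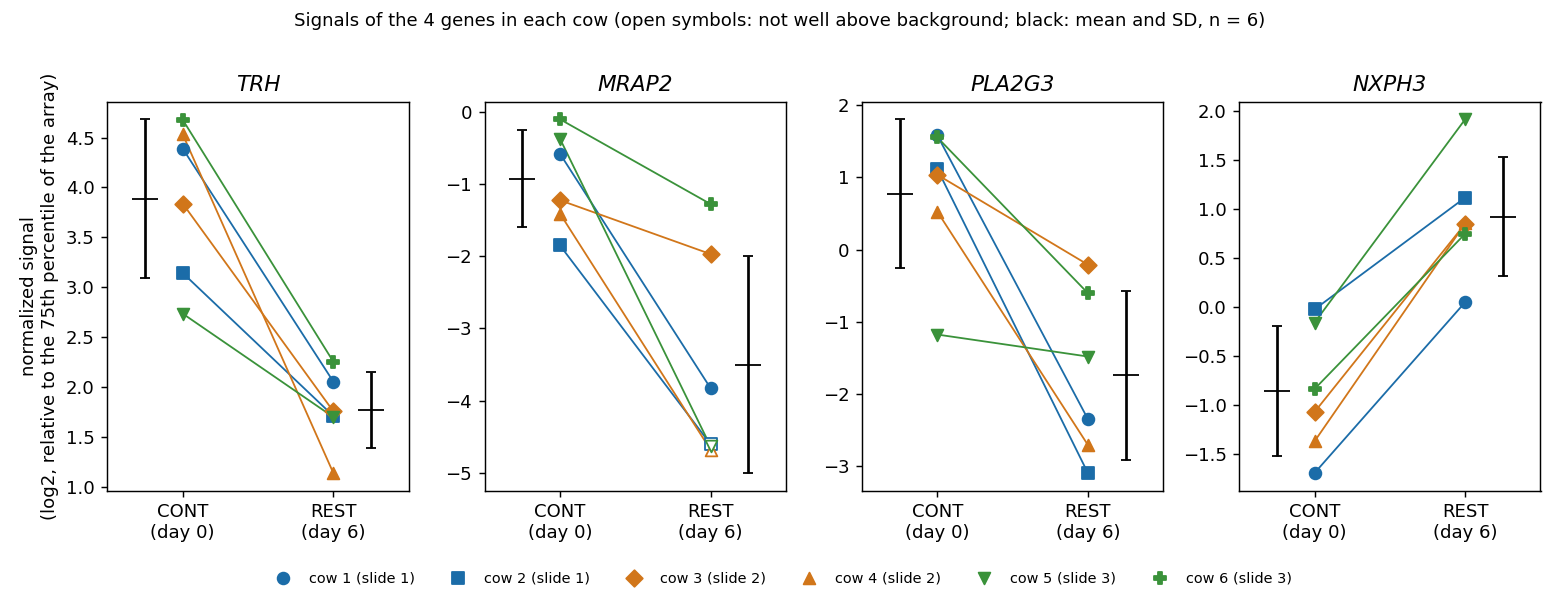
Normalized log2 signal of TRH, MRAP2, PLA2G3 and NXPH3 in CONT and REST, each gene on its own vertical scale, with a line for each of the 6 cows coloured by slide, open symbols for spots not well above background, and bars for the mean and SD. All 6 lines of TRH, MRAP2 and PLA2G3 slope down and all 6 of NXPH3 slope up, and the 3 open symbols are the REST values of MRAP2 in cows 2, 4 and 5.

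Among all tested probes, 9.66% were lower and 7.94% higher in REST in all 6 cows, as the 3 falling genes and NXPH3 were. Ordered by mean change, PLA2G3 and TRH held ranks 3 and 8 among the falls of 19406 probes, and NXPH3 rank 19 among the rises. No rank is given for MRAP2, whose mean includes the 3 upper limits. As read, its mean of -2.58 was counted ahead of PLA2G3 (-2.52). With its dim spots raised to the limit, at -2.24, it would stand behind PLA2G3. These places follow from how the genes were picked.

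No cow had the smallest or the largest change in all 4 genes. Cow 5 had the smallest fall in TRH and in PLA2G3 but was among the cows in which MRAP2 sank into the background, and its rise in NXPH3 was second only to that of cow 4. Cow 4 had the deepest fall in TRH and the largest rise in NXPH3, and cow 3 the smallest fall in MRAP2. By slide, the mean change of TRH was -1.88, -2.73 and -1.73 on slides 1, 2 and 3. That of MRAP2 was -3.00, -2.01 and -2.72, each with 1 REST spot that is an upper limit. NXPH3 had 1.44, 2.07 and 1.83, and PLA2G3 -4.08, -2.24 and -1.23. Each gene kept its direction on every slide.

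**Figure D2:**
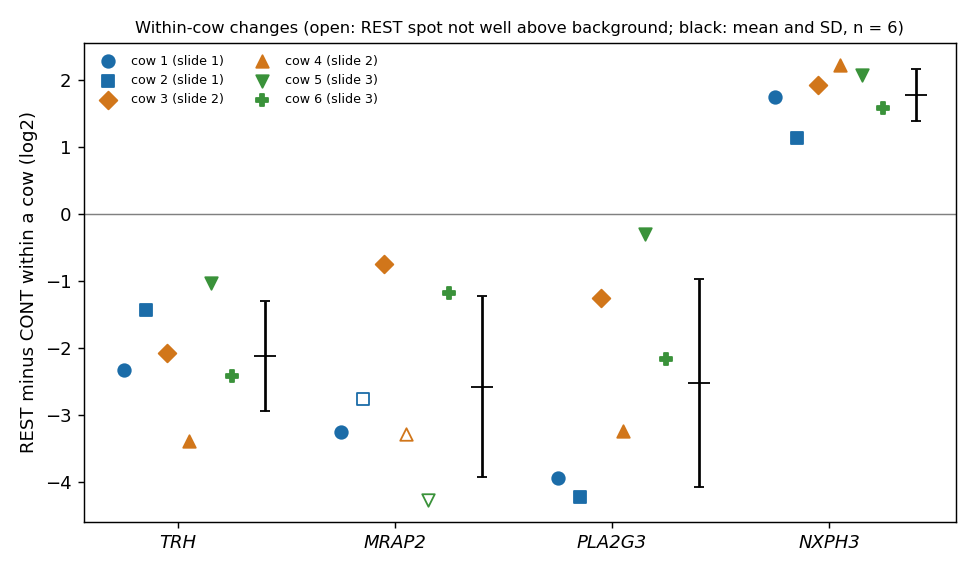
Change of each gene within a cow (REST minus CONT, log2), with 1 point per cow in the same order for every gene, open points where the REST spot was not well above background, and bars for the mean and SD over 6 cows. The points of NXPH3 lie between 1.14 and 2.22, while those of PLA2G3 spread from -4.22 to -0.31.

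Within a period, too, the levels of these genes varied more between cows than those of most probes. The same signals were used to choose the genes, so this is a description. The SD over the 6 CONT arrays was larger than that of 97.9% of tested probes for TRH, 96.3% for MRAP2, 99.3% for PLA2G3 and 96.0% for NXPH3, where the median SD was 0.25. In REST these shares were 80.6% for TRH, 99.8% for MRAP2, 99.4% for PLA2G3 and 94.8% for NXPH3, around a median SD of 0.24. The REST SD of MRAP2 includes the 3 spots not well above background, whose levels are upper limits, and TRH had the smallest REST SD of the 4 genes. The change of NXPH3 varied less between cows than its levels did: its SD of 0.39 was larger than in 76.7% of probes, against 98.0% to 99.9% for the falling genes.

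Relations between the genes over the 6 cows were tested within CONT and within REST separately, 12 in all, by exact permutation of the cows (two-sided). The genes were chosen from the same signals, though by the difference between periods, so the p-values of these relations are read as a description. None of the relations passed an adjusted p of 0.05. The relations of MRAP2 in REST are not read, because 3 of its 6 levels there are upper limits without an order. Of the others, the smallest Pearson p was for TRH with NXPH3 in CONT, where TRH tended to be lower in the cows with higher NXPH3 (r = -0.81, exact permutation p = 0.0667, adjusted p = 0.35; rho = -0.54, exact permutation p = 0.297, adjusted p = 0.61). With levels centred on the mean of each slide r was -0.82, but without cows 2 and 5, the farthest from the median of TRH, it was 0.011, so it rests on those cows. TRH and PLA2G3 in CONT had r = 0.69 (exact permutation p = 0.0875, adjusted p = 0.35) and rho = 0.49 (exact permutation p = 0.356, adjusted p = 0.61), and r was 0.17 without the same cows. Over 6 cows the smallest p that these tests can give is 0.00278.

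The pattern most like that of TRH over the 12 arrays, among 7927 genes, was that of HMGCS1, the cytosolic HMG-CoA synthase of sterol synthesis, with a Pearson r of 0.99. These r values include the shift between periods that all the compared genes may share, and the arrays come from 6 cows, so they are descriptions without a test. After the mean of each period was taken away r was 0.97. With each cow left out in turn, the r that includes the shift between periods ran from 0.989 to 0.999. HMGCS1 was picked as the highest r of the 7927 genes on these same arrays. These values and the order of cows below therefore follow in part from that choice. The same holds for the genes named for MRAP2, PLA2G3 and NXPH3. HMGCS1 differed between the periods by -2.59, -1.55, -2.10, -3.63, -0.76 and -2.80 in cows 1 to 6. From the deepest fall to the smallest, the cows came in the order 4, 6, 1, 3, 2 and 5 for HMGCS1, which is their order for TRH. The next genes were CYP51A1, the lanosterol demethylase, MSMO1, a methylsterol oxidase, FDPS, the farnesyl diphosphate synthase, and SLC11A2, an iron transporter. Their r was 0.96 each, and 0.79 to 0.81 after the period means were taken away. Within REST alone (6 arrays) r with TRH was 0.84 for HMGCS1, 0.85 for CYP51A1, 0.89 for MSMO1, 0.37 for FDPS and 0.41 for SLC11A2.

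MRAP2 was most like RBX1, a subunit of cullin ubiquitin ligases, with r = 0.97 and, without the period means, 0.93. RBX1 had a mean difference of only -0.27, and with normexp the r was -0.10, so this likeness depended on the background correction with its offset. The same held for GFUS, the GDP-fucose synthase, at 0.91 and -0.10. For ARG2, the mitochondrial arginase (r = 0.94), BDH1, the beta-hydroxybutyrate dehydrogenase (0.92), and GK, the glycerol kinase (0.91), r with normexp was 0.85, 0.77 and 0.93. Within CONT alone (6 arrays), where every MRAP2 spot was well above background, r was 0.93 for RBX1, 0.33 for ARG2, 0.14 for BDH1, 0.89 for GFUS and 0.48 for GK. All r values of MRAP2 over 12 arrays include the 3 REST spots that are upper limits, so the order of its genes is uncertain.

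PLA2G3 was most like ABCG2, a transporter that exports substrates such as riboflavin into milk (r = 0.96 and, without the period means, 0.90), and IDH1, the cytosolic isocitrate dehydrogenase (0.96 and 0.94). BDH1 followed at 0.96, then OGDH, the alpha-ketoglutarate dehydrogenase, at 0.95 and the kinase MAP4K5 at 0.95. Cow 5, whose PLA2G3 was low in CONT, also had the lowest ABCG2 signal of the CONT arrays. With normexp the r of these 5 genes ranged from 0.64, for OGDH, to 0.96.

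NXPH3 was most like SPSB1, a ubiquitin ligase adaptor (r = 0.93 and, without the period means, 0.94), whose mean difference was 0.40 where that of NXPH3 was 1.78. GSN, the actin-severing protein gelsolin, TNFRSF1B, a tumour necrosis factor receptor, TMX1, a thioredoxin-like membrane protein, and FMO5, a flavin monooxygenase, had r of 0.91 to 0.92.

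**Figure D3:**
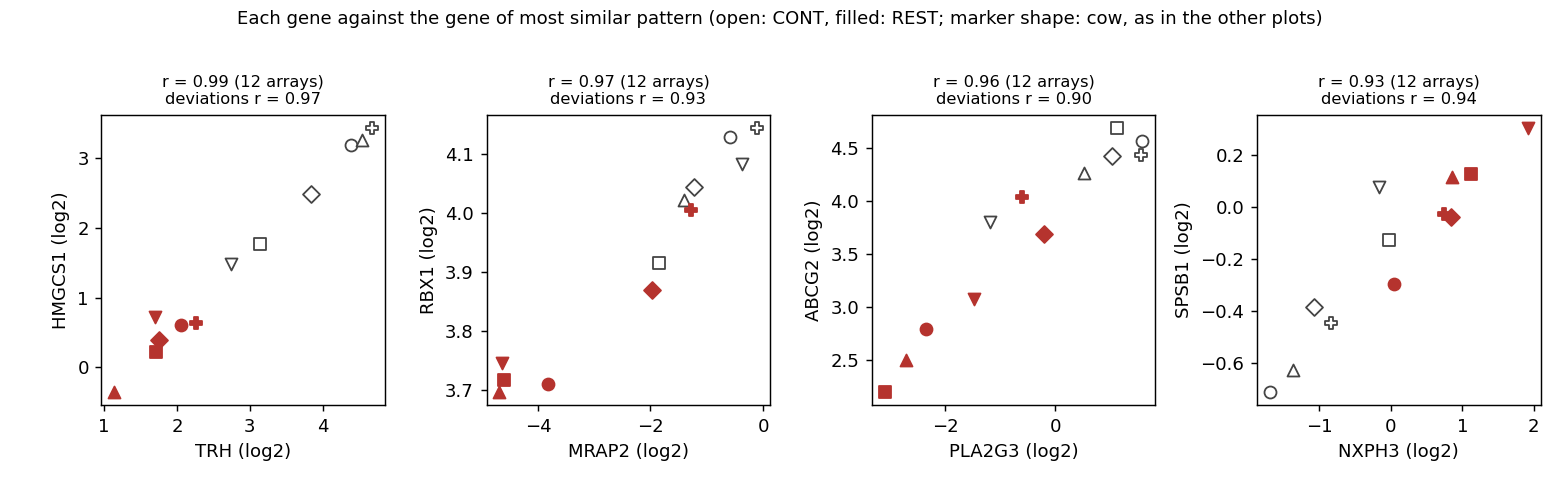
Normalized log2 signal of TRH, MRAP2, PLA2G3 and NXPH3 (horizontal) against that of the gene of most similar pattern (vertical), with 1 point per array, open for CONT and filled for REST, and the marker shape giving the cow. TRH and HMGCS1 (r = 0.99) line up in both periods, while the 4 lowest REST points of MRAP2 lie together, 3 of them not well above background.

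The partners of the 4 genes were followed through 8 lists, 117 genes in all, of which 94 had a matched probe and 35 were bright enough to be tested. Each gene was represented by its tested probe of highest mean signal. By limma without a block, 0 of the 35 passed an adjusted p of 0.1, against 4.39% of all 7932 genes, and 8 (22.9%) had an unadjusted p under 0.05, against 16.8% of all genes. With the cow as a block, 8 passed (22.9%), against 16.2% of all genes. Of these 8, 4 were higher and 4 lower in REST, where 7.12% and 9.1% of all genes were. The 8 came down to 2 without cow 2 and to 4 without cow 4, while the probes called over the whole array came down from 3101 to 1053 and to 1190. The median change of the 35 was 0.13, and that of all tested genes -0.01. The share in the lists was thus near that in the whole array. Unless stated otherwise, every call and adjusted p of a gene of these lists below is from limma with the cow as a block. Their standard errors (SE) are from limma without a block.

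Of the genes that make, sense and degrade thyrotropin-releasing hormone, only PAM, the enzyme that amidates the finished peptide, was bright enough to test of 7 with a probe. It was 1.95 ± 0.24 in CONT and 2.18 ± 0.24 in REST (SD, n = 6), with an adjusted p of 0.184. The other tested PAM probe, with a difference of 0.33, was called. The hormone's receptor TRHR was well above background on 0 of 12 arrays, and no probe was matched to TRHDE, which degrades the hormone. Of the 6 tested genes of thyroid hormone action, 0 were called by limma with or without the block, and 1 had an unadjusted p under 0.05 without it. THRA, a thyroid hormone receptor, had a difference of 0.34 (SE 0.13 without the block) with an adjusted p of 0.127, and DIO2, which activates thyroid hormone, one of 0.18 (SE 0.17) with an adjusted p of 0.270.

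Among the melanocortin genes, 3 of 11 were bright enough. MC4R, the receptor that MRAP2 is best known to bind, rose from -2.14 ± 0.23 to -1.56 ± 0.51 (SD, n = 6; adjusted p = 0.0797), and was higher in 5 of 6 cows. It was called only when all cows were used or cow 1 was left out, and its change ranged from 0.15 to 0.58 over the scalings tried. POMC, the precursor of the melanocortins (-0.18), and ASIP, their antagonist (0.17), were not called. No probe was matched to MRAP, the relative of MRAP2. Of the other receptors that MRAP2 binds and their ligands, only HCRT, the orexin precursor, was bright enough to test (0.07, not called), and the ghrelin receptor GHSR was above background on 0 of 12 arrays.

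Of the other secreted phospholipases A2 and their receptor, 2 of 7 with a probe were tested and neither was called. PLA2G12A had a difference of -0.01 (SE 0.12, adjusted p = 0.956) and PLA2G2D1 one of 0.19 (SE 0.15), and the receptor PLA2R1 was well above background on 1 array of each period. Of the 6 tested genes of the list of intracellular phospholipases, which also holds the plasma enzyme PLA2G7, PLA2G16, an enzyme that acts on phospholipids inside the cell, fell by 0.68 (adjusted p = 0.0351), lower in 6 of 6 cows, though not called without cow 2.

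The enzymes that act on the freed fatty acids, and the receptors for their products, had 12 tested genes, of which 2 rose and 3 fell, with a median change of 0.21. HPGD, which inactivates prostaglandins, fell by 1.03 on the log2 scale (adjusted p = 0.0174), and PTGER4, a prostaglandin E receptor, rose by 0.47 (adjusted p = 0.0193). Each moved in the same direction in 6 of 6 cows and was called with any cow left out. PTGES, a prostaglandin E synthase, rose by 0.96 (adjusted p = 0.0635) and ALOX15, a lipoxygenase, fell by 0.84 (adjusted p = 0.0546), and both lost the call without cow 1, 2 or 4 and PTGES also without cow 6. The other tested ALOX15 probe, at -0.85, was called also without the block. PTGES2, another prostaglandin E synthase named here after its value was seen, fell by 0.40 (adjusted p = 0.0351; -0.40 to -0.22 over the scalings) and lost the call without cow 2. PTGS2, the inducible cyclooxygenase, was well above background on 1 CONT and 4 REST arrays and so was not tested.

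Of the neurexophilins, neurexins and their partners, 4 of 17 with a probe were tested. NLGN2, a neuroligin of inhibitory synapses, rose by 0.47 (adjusted p = 0.0421), higher in 5 of 6 cows, and lost the call without cow 1, 2 or 4. NRXN2, the only neurexin bright enough, had a difference of -0.08 (SE 0.18 without the block, limma adjusted p = 0.726 with it), and its sign changed between scalings. NXPH1 and NXPH2 were each well above background on 0 CONT arrays and 1 REST array, and no probe was matched to NXPH4.

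**Figure D4:**
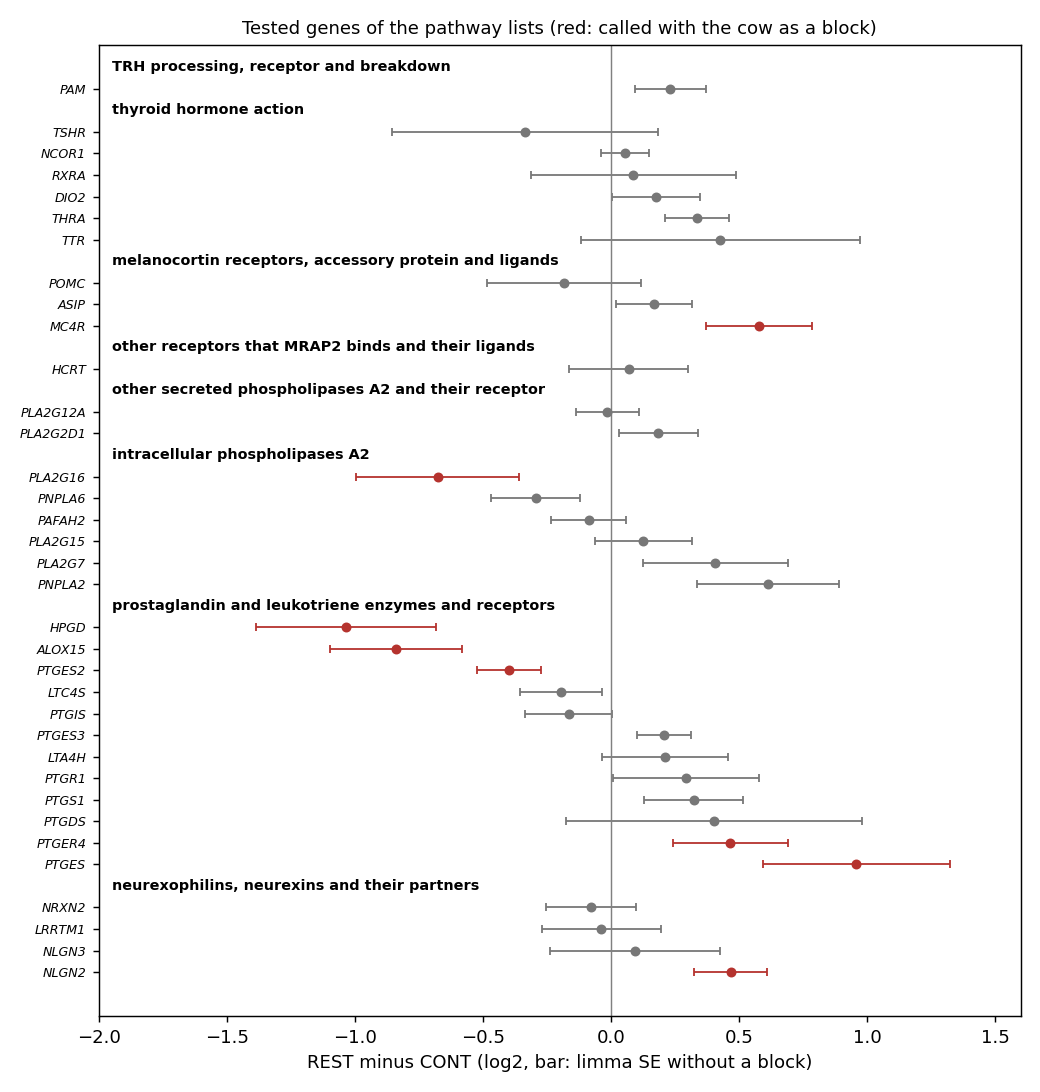
Mean change (REST minus CONT, log2) of the 35 tested genes of the 8 lists, with bars for the standard error of limma without a block and red for genes called with the cow as a block. HPGD and ALOX15 lie furthest to the left and PTGES furthest to the right, and the 8 red genes fall on both sides of 0.

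The biopsies carried the defining signals of milk-secreting epithelium: 10 of 12 luminal markers were tested, and the casein genes CSN1S1 and CSN3 had mean signals of 9.79 and 9.98 in CONT. The summed luminal signal (log2 of the summed normalized signals) ran from 12.1 to 12.5 in CONT and from 11.9 to 12.2 in REST, with 0 of 10 called by limma without a block (4 at an unadjusted p under 0.05), and 2 higher and 2 lower with it. Over all 8 marker lists 12 of 43 tested genes (27.9%) were called with the cow as a block, against 16.2% of all genes, and 25.6% had an unadjusted p under 0.05 without it, against 16.8%. Markers of neurons, nerves and endocrine cells, the cells best known for TRH and NXPH3, had 5 of 12 tested, with 0 called by limma with or without the block and 0 at an unadjusted p under 0.05, although another of the 3 tested probes of S100B was called with and without it. Their summed signal was 4.77 to 5.62 in CONT and 5.28 to 5.72 in REST, and SYT1 and CHGA were well above background on 0 of 12 arrays.

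Of the 6 endothelial markers, 2 rose in REST without a block, against 4.39% of all genes called, VWF by 0.54 (limma adjusted p = 0.0534) and CLDN5 by 0.74 (limma adjusted p = 0.0560), in 6 of 6 cows each. The other 4 were not called by limma without the block or with it, at -0.15 for KDR, 0.03 for CDH5, 0.13 for TEK and 0.32 for PECAM1. The summed signal of all 6 was 3.84 to 4.56 in CONT and 4.53 to 4.96 in REST. VWF was called with only 2 of the 6 cows left out in turn (not without cow 1, 2, 3 or 6), as was CLDN5 (not without cow 1, 2, 3 or 4). With the cow as a block the limma adjusted p was 0.00727 for VWF and 0.0115 for CLDN5. Of the mast cell markers, 1 of 4 with a probe was tested, HDC, which fell by 0.70 with the cow as a block (limma adjusted p = 0.0951; -0.70 to -0.38 over the scalings, with 5 of 6 REST spots well above background), and the summed signal, here that of HDC alone, was -1.94 to -0.77 in CONT and -3.19 to -1.20 in REST. The 2 tested adipocyte markers went opposite ways with the block, FABP4 by -0.35 (limma adjusted p = 0.0455; -0.40 to -0.22 over the scalings) and CFD by 0.78 (limma adjusted p = 0.0152), with a summed signal of 7.22 to 7.77 in CONT and 6.72 to 7.29 in REST. Of 6 myoepithelial, 6 fibroblast and 7 leukocyte markers tested, 0 were called without the block (1, 0 and 1 at an unadjusted p under 0.05), and with it 2 myoepithelial markers were lower and 1 leukocyte marker higher. The part of these cell types in the changes of the 4 genes was not tested.

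The changes of the 4 genes kept their direction under every way of processing that was tried, though the sizes moved. MRAP2 and PLA2G3 moved most with the background correction and its offset, and TRH and NXPH3 most when the dim probe was averaged in. TRH ranged from -2.33 to -1.86, MRAP2 from -2.94 to -2.24, PLA2G3 from -2.96 to -2.18 and NXPH3 from 1.69 to 1.91 with each cow left out in turn. For PLA2G3 normexp gave -1.75, normexp followed by quantile normalization gave -1.60, and leaving out slide 3 gave -3.16.

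**Figure D5:**
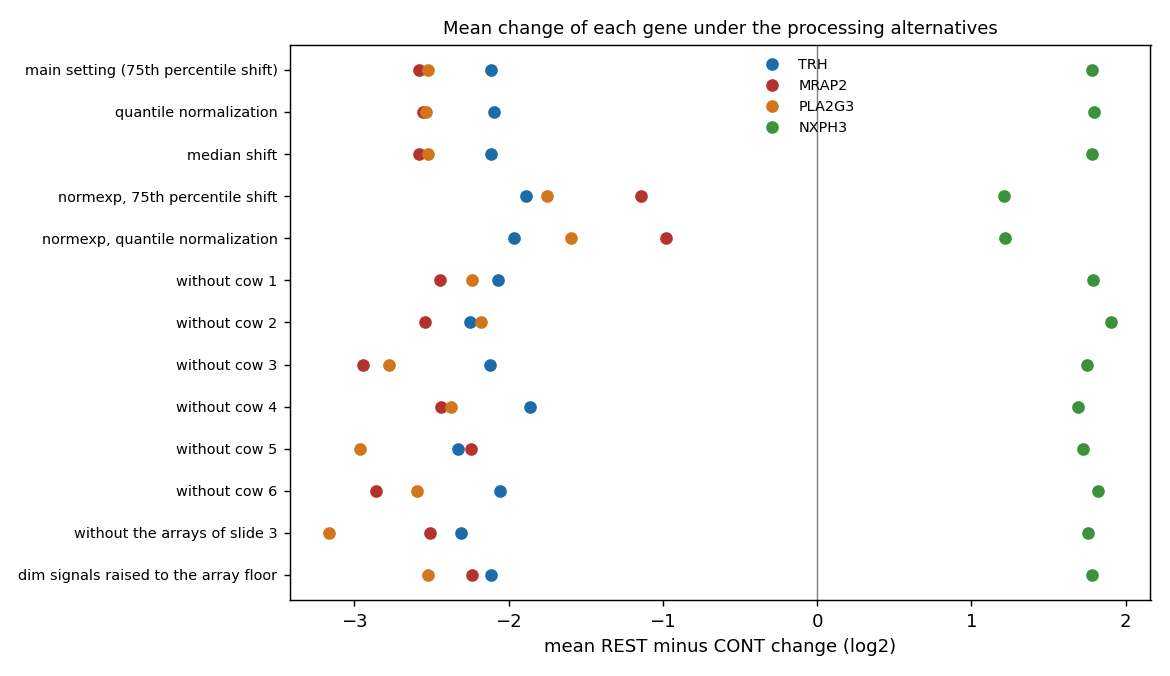
Mean change (REST minus CONT, log2) of TRH, MRAP2, PLA2G3 and NXPH3 under each scaling, background correction and left-out cow or slide, with 1 row per setting. The points of the 3 falling genes stay left of 0 and those of NXPH3 right of it, and MRAP2 moves furthest, from -2.58 to -0.98 with normexp and quantile normalization.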

How the data were processed

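RNA from 12 mammary biopsies was hybridised on Agilent 4x44K bovine arrays, labelled with Cy3. Per the file headers and the submitters' notes, the authors extracted spot intensities with Agilent Feature Extraction 11, and the deposited scanner files hold background-subtracted, spatially detrended intensity on a linear scale, not yet scaled between arrays. The study's methods name a 75th percentile shift, which was computed here. Symbols were matched through RefSeq identifiers (62.2% of probes). Positions and sequences were not analysed here.

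Marked spots (1 to 13 per array) were left out, repeat spots averaged, log2 taken and the 75th percentile over non-control probes subtracted. No spot was saturated. Tests were two-sided, by limma 3.58.1 (R 4.3.3) with Benjamini-Hochberg adjustment over all 19406 tested probes (threshold 0.1). For gene lists, the tested probe of highest mean signal stood for a gene. The model had no block, since the study's methods name no pairing. The labels name the cow, so same-numbered samples are paired, and deviations of same-cow arrays from the period means correlated at 0.36 to 0.57 (-0.33 to 0.13 between cows). Cows are separate animals with 1 biopsy per period. Without a block, p-values measure the spread between cows within a period and leave the pairing unused. With the cow as a block, they measure the spread of the within-cow changes. Normexp used an offset of 50. Likeness was Pearson r over 12 arrays, for the 5 most similar genes each. Of each list, at most 4 called genes were named, with TRHR, TRHDE, PAM, MRAP, MC4R, PLA2R1, PLA2G12A, PTGS2, NXPH4 and NRXN2 whatever their values, PTGES2 beyond that number, and marker genes where a result turned on them. Genes and lists were chosen with earlier results of these data known. The limma step and the permutation test were tested on simulated data. Python 3.11.15, pandas 2.3.3, scipy 1.17.1 and matplotlib 3.10.9 were used.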

Additional observations from a re-analysis of the deposited data

How the results depend on the processing

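Over 62 combinations of gene and processing alternative, the changes of TRH, MRAP2, PLA2G3 and NXPH3 reversed in 0 and moved by more than their spread in 6. With normexp and the 75th percentile shift MRAP2 changed by -1.14 and NXPH3 by 1.21, and with normexp and quantile normalization by -0.98 and 1.22. With the mean over all probes, dim ones included (chosen after seeing the data), TRH changed by -1.17 and NXPH3 by 0.98. PLA2G3 (SD 1.55) moved by less than its spread throughout, though to -1.75 and -1.60 under the 2 normexp settings. The number of probes called was 831 (449 genes), against 476 (252) with a median shift, 200 (111) with normexp and the percentile shift, 1901 (995) with the slide as a block, and 95 (60) without the filter on dim probes. In these counts a gene was called when any of its probes was. With the cow as a fixed replicate block 3101 probes (1626 genes) were called, and as a random block 3535 (1850). The methods' t-test called 732 probes at their threshold, an adjusted p under 0.1, and 4760 at an unadjusted p under 0.1. Without 1 cow the calls ranged from 189 to 612 probes and from 105 to 358 genes. The 35 pathway genes were counted by the probe of highest signal only, unlike the gene counts above. Of them 0 were called, against 1 with quantile normalization, 1 with normexp and quantile normalization, 8 with the cow as a fixed block, 10 as a random block and 5 with the slide as a block, and 0 to 3 without 1 cow. Correlations over cows that changed sign were, with normexp, TRH with MRAP2 in CONT (-0.044) and MRAP2 with NXPH3 in CONT (0.067) and in REST (0.13, not read because 3 MRAP2 levels there are upper limits), with slide-centred levels, MRAP2 with PLA2G3 in CONT (0.39) and PLA2G3 with NXPH3 in REST (-0.42), and without the 2 farthest cows, TRH with NXPH3 in CONT (0.011), MRAP2 with NXPH3 in CONT (0.44) and TRH with PLA2G3 in REST (-0.20). The cause was not tested. The number of arrays and, for MRAP2 in REST, the distance to the background limit the precision.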
